A study of Mus musculus with 32 samples.

Results

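The proteasome core, regulatory and assembly genes were taken by symbol from the deposited tables: the alpha ring genes (Psma1 to Psma8), the non-catalytic beta ring genes (Psmb1 to Psmb4), the 6 ATPases of the base (Psmc1 to Psmc6), the Psmd genes, the assembly chaperones (Psmg1 to Psmg4), the activator gene Psme4 and the inhibitor gene Psmf1. This rule gave 38 of the 22216 genes in the tables, and it left out the catalytic subunits and the activator PA28. The RNA came from dendritic cells grown from C57BL/6 mouse bone marrow in GM-CSF and harvested at day 9. Wild-type (WT) cells were compared with double-knockout cells (dKO, labelled Lmp7-/-Mecl1-/-), which lack both Psmb8 and Psmb10, the genes of the immunoproteasome subunits LMP7 and MECL1; both genotypes were left without lipopolysaccharide (LPS, time 0 h) or given 1 µg/mL LPS for 1, 2 or 6 h. Each of the 8 groups held 4 libraries. The labels number the replicates without saying whether they came from separate mice or cultures, and each p-value below therefore reflects only how far these numbered samples scatter, which could be technical scatter. The labels used here give no sex or age of the mice, and the dKO genotype is given with no promoter or Cre.

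The proteasome is the protease that breaks down ubiquitin-tagged proteins. Its barrel, the core particle, stacks rings of alpha subunits, which form the gate, on rings of beta subunits, of which some carry the active sites and the others are structural. A regulatory particle sits on the gate: its base unfolds the substrate with a ring of ATPases, and its lid removes the ubiquitin chain. Dedicated chaperones put the rings together. In dendritic cells the products of the proteasome feed MHC class I presentation, and inflammatory signals exchange the constitutive active-site subunits for immunoproteasome ones. When proteasome activity is lost, cells can raise many subunit genes together through the transcription factor Nrf1 (Nfe2l1). The comparison between genotypes therefore asks whether the other subunit genes were higher in cells without LMP7 and MECL1.

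Psmb8 was between 2.67 and 7.42 RPKM (reads per kilobase of gene, scaled to the library's mapped reads) in the 16 dKO libraries and between 150 and 312 in the 16 WT libraries, and Psmb10 was between 2.37 and 17.1 against 41.6 to 131. A total of 5 dKO libraries lay nearest to the WT profile of another time than their label gives: replicate 2 of 0 h (nearest to 1 h), replicate 2 of 1 h (nearest to 2 h), replicates 2 and 4 of 2 h (nearest to 0 and 6 h) and replicate 4 of 6 h (nearest to 2 h). They correlated with the WT profile of their labelled time at 0.823 to 0.946, and the other 27 libraries did so at 0.972 to 0.996. With the nearest WT profile these 5 correlated at 0.967 to 0.977. Within dKO replicate 2 the labels 0, 1 and 2 h had 1, 2 and 0 h as nearest times. Il6 was at 1124 RPKM in dKO replicate 2 of 0 h, against 0.836 to 2.04 in the other dKO libraries of 0 h. In dKO replicate 2 of 2 h it was at 1.67 RPKM, against 1154 to 1641 in the others of 2 h. Whether labels were exchanged was not tested. All 5 were kept as labelled. The counts of genes called between the genotypes are also given without these 5 libraries, which leaves 2 dKO libraries at 2 h. Counts of groups that did not overlap, of unadjusted p and of upper limits are with all libraries. Depth was 1.27 to 1.87 Gb aligned to genes. Of the cell type markers, the 6 dendritic cell genes, of which 5 were at 1 RPKM or more, summed to 7263 to 8309 RPKM in WT and 6545 to 8319 in dKO at 0 h. The B cell and erythroid lists summed to 1.49 RPKM or less at 0 h, with no gene at 1 RPKM. The 7 granulocyte markers found, of which 5 were at 1 RPKM or more, summed to 72.7 to 82.6 in WT against 50.2 to 112 in dKO at 0 h. The 8 macrophage markers in the tables, all at 1 RPKM or more, summed to 1086 to 1480 in WT against 428 to 783 in dKO at 0 h, and the 10 cell cycle genes, all at 1 RPKM or more, to 142 to 179 against 80.8 to 109. In WT the cell cycle genes summed to 37.5 to 44.9 at 6 h, and in dKO to 27.1 to 50.04. The 4 eosinophil markers in the tables, of which 3 were at 1 RPKM or more, summed to 405 to 530 in WT against 214 to 435 in dKO at 0 h, and to 508 to 893 against 309 to 459 at 6 h. The 6 mast cell and basophil markers summed to 6.83 to 11.1 against 3.37 to 6.47 at 0 h and to 7.72 to 12.4 against 5.50 to 6.45 at 6 h, with Fcer1a below 0.1 RPKM. In such bulk samples, fewer cells of a type and less RNA per cell cannot be told apart, and the part of cell makeup in the values below was not tested.

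Levels are in RPKM, which is per gene length and so can be compared between genes. In WT cells at 0 h the 38 genes spread from 1.30 RPKM (Psma8) to 164 (Psmd8), although the ring subunits are built into the complex in equal numbers. Psmd8, a lid gene, had 167, 167, 155 and 168 RPKM in the 4 libraries and lay above all the others. Psma6 and Psma7, both of the alpha ring, followed at 147 ± 5.19 and 145 ± 2.46 (SD, n = 4) and overlapped each other. Psmb4 (127 ± 4.59) and Psmb1 (116 ± 3.74), structural subunits of the beta ring, came next, each apart from its neighbours. From Psmd6 (44.3) down to Psmc6 (38.01), 8 genes of the base and lid followed each other with no gap between neighbours in the order. The assembly genes lay at the low end: Psmg4 at 19.0 ± 2.12, Psmg3 at 12.9 ± 0.544, Psmg1 at 12.4 ± 1.07 and Psmg2 at 11.1 ± 1.03 RPKM. Psma8, an alpha subunit of the germ line, was at 0.802, 1.27, 1.20 and 1.92 RPKM.

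**Figure D1:**
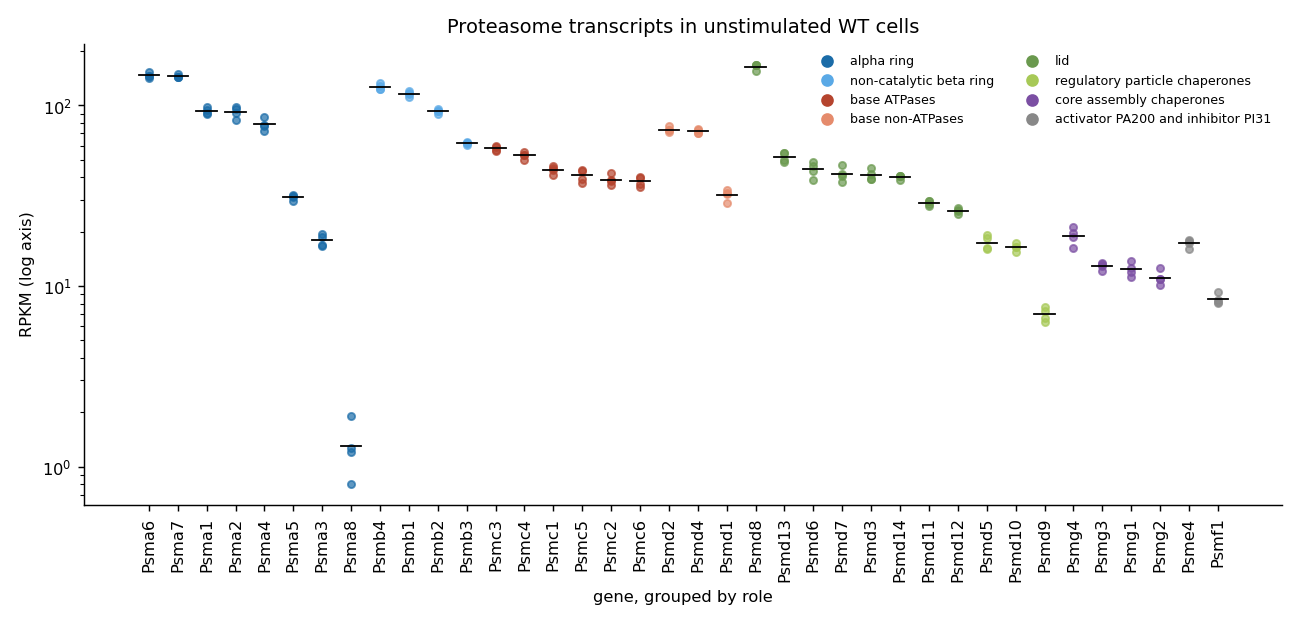
RPKM (log axis) of the 38 genes in the 4 WT libraries at 0 h, 1 point per library with a bar at the mean, coloured by role. The ATPases of the base lie within 1.52-fold of each other, while the alpha ring spans 8.20-fold from Psma3 to Psma6 without Psma8.

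The roles differed in how evenly their genes were expressed. The 6 ATPases, which form 1 ring, lay within a 1.52-fold range, from Psmc6 (40.2, 36.7, 35.6 and 39.6 RPKM) to Psmc3 (59.1, 56.8, 56.1 and 59.4). The beta ring genes spanned 2.06-fold, from Psmb3 (60.7, 63.2, 61.8 and 62.0) to Psmb4 (134, 128, 124 and 124). The 7 alpha genes other than Psma8 spanned 8.20-fold, from Psma3 (19.4, 16.6, 18.7 and 16.9) to Psma6 (146, 146, 141 and 154). The lid spanned 6.28-fold, from Psmd12 (26.5, 26.1, 25.0 and 27.0) to Psmd8. The large scaffold and receptor genes of the base ran from Psmd1 (32.3, 32.6, 28.7 and 33.9) to Psmd2 (72.9, 73.2, 71.3 and 76.9). The chaperones of the regulatory particle ran from Psmd9 (6.69, 7.25, 7.68 and 6.32) to Psmd5 (16.2, 19.1, 16.0 and 18.3). Psme4, the gene of the alternative activator PA200, had 16.1, 18.0, 17.3 and 17.7 RPKM, and Psmf1, the gene of the inhibitor PI31, 8.09, 8.42, 9.27 and 8.21. Deposited entries of other genes overlapped Psma4 (Cdkn2d), Psmd1 (Htr2b) and Psmd14 (Mir684-1), and reads of overlapping genes cannot be told apart where strand was not kept.

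No subunit, chaperone or regulator gene was called higher in dKO at any of the 4 times. Changes are differences of log2(RPKM + 0.5), a scale that understates changes of low genes, and a gene was called when its limma p was below 0.05 after Benjamini-Hochberg adjustment over all 11154 tested genes, which held all 38. At 0 h, 0 of 38 were called higher and 5 lower (13.2%), where 0.932% of all genes tested were called higher and 5.91% lower. At 1 h none was called in either direction, against 1.84% and 9.02% of all genes. At 2 h 0 were higher and 1 lower (5.15% and 7.24% of all genes), and at 6 h 0 were higher and 6 lower (15.8%; 4.55% and 10.2% of all genes). Without dKO replicate 2 or dKO replicate 4 alone, 1 gene was called at 1 h, and without dKO replicate 3 alone 2 were at 2 h. By limma's unadjusted p below 0.05 there were 0 higher at every time, and 20, 9, 2 and 13 lower at 0, 1, 2 and 6 h. The median log2 changes of the 38 genes were -0.28, -0.20, -0.03 and -0.22. The medians of all genes tested were -0.19, -0.18, 0.09 and -0.15. The 38 genes thus lay somewhat lower at 0, 2 and 6 h, and at 1 h both medians were close (-0.20 and -0.18). Their share in all RPKM was 0.361% to 0.464% in dKO against 0.493% to 0.518% in WT at 0 h. It was 0.355% to 0.363% against 0.396% to 0.439% at 1 h and 0.375% to 0.427% against 0.485% to 0.510% at 6 h. At 2 h the shares overlapped, at 0.362% to 0.456% against 0.397% to 0.441%. Without the 5 libraries nearest to another time they did not, with dKO at 0.362% to 0.376%. The dKO and WT libraries did not overlap in 19 of the 38 genes at 0 h (26.5% of all genes), 15 at 1 h (32.1%), 2 at 2 h (13.4%) and 18 at 6 h (31.1%).

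Median-of-ratios scaling, which sets the typical gene to no change between libraries, removed most of the lower calls and gave no higher ones. With it, 0 of 38 genes were called at 0 h (1.84% of all genes higher and 3.06% lower) and 0 at 1 h (4.26% and 6.21%). At 2 h 1 gene was lower, Psmg4 (8.65% and 9.65% of all genes), and at 6 h 2 were lower, Psma6 and Psmg4 (8.28% and 7.91%). The medians of the 38 genes were then -0.08, 0.00, -0.12 and -0.05. The size of increase that the data leave room for was bounded gene by gene: the median upper 95% limit of the log2 change was -0.01, 0.09, 0.23 and 0.04 as deposited and 0.20, 0.28, 0.13 and 0.19 after scaling. As deposited the limit exceeded 0.5 for Psma8 at 0 and 1 h, for 6 genes at 2 h (Psma8, Psmd5, Psmd9, Psmg2, Psmg3 and Psmf1) and for Psma8 and Psmg2 at 6 h. After scaling it did so for 2, 3, 3 and 4 genes, among them Psmd8 at 0, 1 and 6 h.

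**Figure D2:**
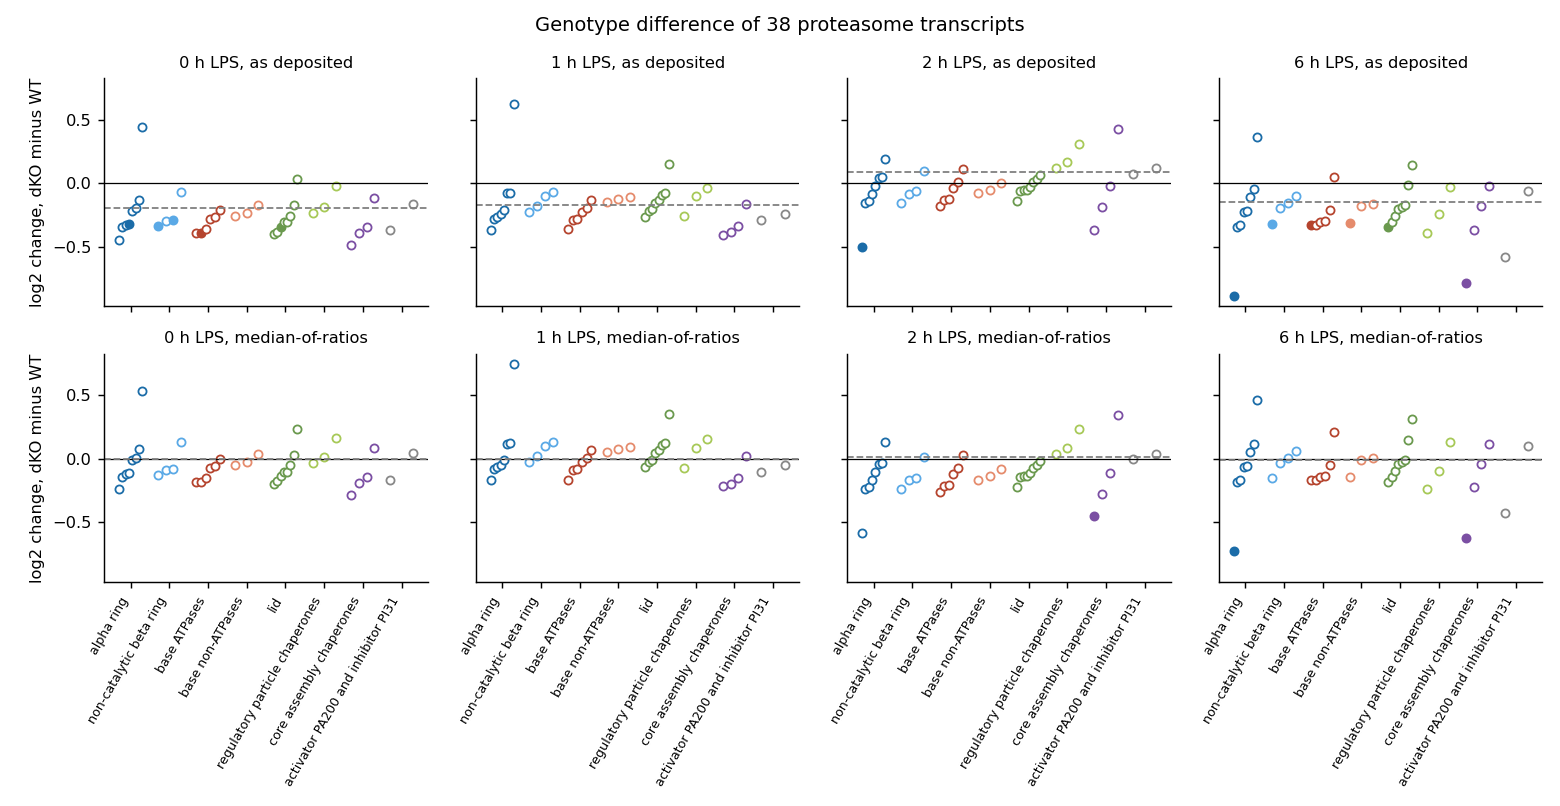
Log2 change, dKO minus WT, of each of the 38 genes by role at 4 times, with RPKM as deposited (top) and after median-of-ratios scaling (bottom); filled points were called, and the dashed line is the median of all genes tested. The points lie mostly around the dashed line, none of the filled points is above 0, and Psma6 and Psmg4 stand lowest at 6 h.

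The 5 genes lower in dKO at 0 h, as labelled, came from the core, the base and the lid. Psmc4, an ATPase of the base, had 43.5, 30.2, 46.7 and 42.7 RPKM in dKO against 53.3, 53.2, 49.7 and 55.4 in WT (log2 change -0.39 ± 0.101, SE; limma adjusted p = 0.0147). Psmb2 had 77.7, 62.9, 74.5 and 79.4 against 95.4, 93.7, 89.9 and 92.7 (-0.34 ± 0.0908, limma adjusted p = 0.0187). Psmb4 had 106, 85.6, 112 and 116 against 134, 128, 124 and 124 (-0.29 ± 0.0806, limma adjusted p = 0.0251). In each of these genes every dKO library was below every WT library, and the lowest value belonged to replicate 2, 1 of the 5 libraries that lay nearest to another time. Psma2, of the alpha ring, had 74.3, 69.4, 72.5 and 78.4 against 96.2, 91.4, 83.3 and 97.6 (-0.32 ± 0.0932, limma adjusted p = 0.0334). Psmd13, of the lid, was the fifth, with 42.8, 31.8, 44.3 and 45.1 against 49.6, 54.3, 48.9 and 54.3 (-0.35 ± 0.102, limma adjusted p = 0.0363). After median-of-ratios scaling the changes of these 5 genes were -0.08 to -0.18 and none was called. Without dKO replicate 2 alone, 0 of the 38 genes were called at 0 h. Without WT replicate 1, 2 or 4 the count was 1, 1 and 2, and without dKO replicate 4 it was 8.

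Psma6 and Psmg4 were the 2 genes lower in dKO at 6 h under both scalings. Psma6 encodes a subunit of the alpha ring and lies at chromosome 12, 56499812 to 56519446 (mm9). At 6 h it had 244, 218, 262 and 170 RPKM in dKO against 408, 412, 395 and 421 in WT, so that the highest dKO library (262) was below the lowest WT library (395). Its log2 change was -0.89 ± 0.124 (SE; limma adjusted p = 7.99e-06), and -0.72 ± 0.214 after median-of-ratios scaling (limma adjusted p = 0.0197). At 2 h it had 163, 125, 199 and 214 against 240, 233, 240 and 262 (-0.50 ± 0.124, limma adjusted p = 0.00638). After scaling the change at 2 h was -0.59 (limma adjusted p = 0.0554). The 125 is replicate 2, which lay nearest to 0 h. Without that library alone the change as deposited was -0.35, and without replicate 4, nearest to 6 h, it was -0.61. Psma6 stayed called in both of these fits. At 0 h the dKO libraries had 124, 132, 121 and 127 against 146, 146, 141 and 154, which did not overlap but did not pass the test (-0.22, limma adjusted p = 0.347), and at 1 h 136, 161, 131 and 131 against 180, 176, 176 and 190 (-0.37, limma adjusted p = 0.0511). The gap between the genotypes in RPKM was thus widest at 6 h, where WT was highest.

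Psmg4 encodes a chaperone that works as a pair with the Psmg3 product in building the alpha ring, and lies at chromosome 13, 34254846 to 34270041 (mm9). At 6 h it had 18.8, 16.7, 18.9 and 12.3 RPKM in dKO against 28.8, 27.0, 27.0 and 32.7 in WT, with no overlap (-0.79 ± 0.138, limma adjusted p = 0.000181; after scaling -0.63 ± 0.151, limma adjusted p = 0.00425). At 0 h the groups overlapped, 17.7, 16.6, 19.2 and 16.1 against 18.7, 19.6, 21.4 and 16.3. At 1 h they did not overlap, at 14.4, 11.3, 15.0 and 16.7 against 18.1, 17.8, 17.8 and 23.0, and did not pass the test (-0.41 ± 0.138, limma adjusted p = 0.0529). At 2 h they overlapped again, at 12.1, 15.2, 17.6 and 13.5 against 17.4, 18.6, 17.8 and 21.7 (-0.37, limma adjusted p = 0.0807; after scaling -0.45, limma adjusted p = 0.0388). The partner gene Psmg3 passed the test at no time between the genotypes. The other genes lower at 6 h as deposited were Psmd4, the ubiquitin receptor of the base, at 54.1, 56.2, 51.2 and 54.6 against 69.4, 64.3, 66.2 and 68.4 (-0.31 ± 0.0781, limma adjusted p = 0.00645), and Psmb2, whose highest dKO library just overlapped the lowest WT library, at 53.6, 61.8, 53.4 and 67.3 against 75.3, 67.1, 72.9 and 79.0 (-0.32 ± 0.0908, limma adjusted p = 0.0155). Psmc4 (-0.33) and Psmd13 (-0.35) were lower again. None of these 4 was called after scaling. Without WT replicate 4 alone, 3 of the 38 genes were called at 6 h. In all, 30 of the 38 genes were called between the genotypes at none of the 4 times. Among these, Psmf1 had 7.51, 7.82, 7.77 and 3.46 RPKM in dKO at 6 h against 9.60, 9.19, 9.17 and 11.03 in WT, which did not overlap and did not pass the test (-0.58 ± 0.223, limma adjusted p = 0.0812). The 3.46 is replicate 4, which lay nearest to 2 h, and without it the dKO mean was 7.70 against 9.74 in WT. At 6 h the same library held the 170 of Psma6, the 12.3 of Psmg4 and the 67.3 of Psmb2.

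**Figure D3:**
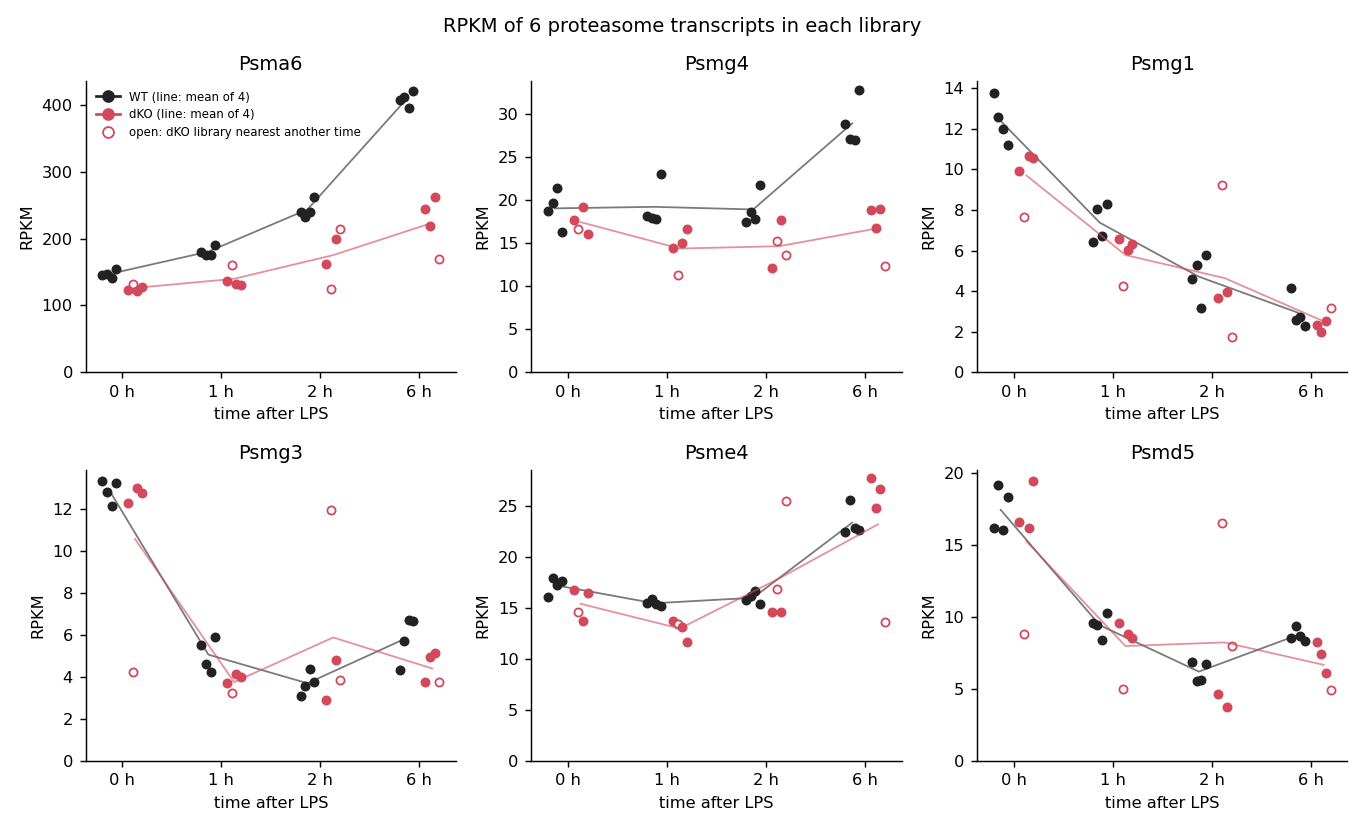
RPKM of Psma6, Psmg4, Psmg1, Psmg3, Psme4 and Psmd5 in each of the 32 libraries by time after LPS; lines join group means, and open points are the 5 dKO libraries nearest to another time. Psma6 climbs to between 395 and 421 in WT and to 262 at most in dKO at 6 h, while Psmg1 falls in both genotypes.

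Without the 5 libraries the spread within dKO groups was smaller and more genes passed the test in both directions. As deposited, 0, 1, 0 and 1 of the 38 genes were then higher and 13, 16, 11 and 24 lower at 0, 1, 2 and 6 h, where 6.71%, 9.79%, 9.29% and 13.9% of all genes were higher and 19.5%, 29.5%, 23.9% and 33.1% lower. With median-of-ratios scaling as well, 1, 2, 0 and 4 were higher and 5, 3, 4 and 8 lower (10.4%, 17.4%, 18.3% and 22.8% of all genes higher, and 12.5%, 17.5%, 15% and 19.9% lower). The share of these genes called higher was below that of all genes at each time under each of these settings. Psma6 was lower at 6 h in both of these fits (-0.76 and -0.62), as was Psmg4 (-0.65 and -0.51).

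The few genes called higher in dKO appeared in these fits only. Psme4, whose PA200 product caps the core particle without ATP or ubiquitin, had 27.8, 24.8, 26.7 and 13.6 RPKM in dKO at 6 h against 22.4, 25.6, 22.8 and 22.7 in WT, where the low dKO value is replicate 4, which lay nearest to 2 h. Its log2 change was -0.06 with all libraries (limma adjusted p = 0.848) and 0.17 without the 5 (limma adjusted p = 0.0388; 0.31 after scaling, limma adjusted p = 0.000931). Psma8 at 1 h was at 1.84, 0.737, 1.496 and 1.57 against 0.478, 0.958, 0.941 and 0.545 RPKM (0.62, limma adjusted p = 0.256; without the 5, 0.82, limma adjusted p = 0.0123), levels near the filter of 1 RPKM. After scaling and without the 5, Psmd8 was higher at 1 and 6 h, Psmc6 and Psmd10 at 6 h and Psmd9 at 0 h. Of these, Psmd8 had 152, 193, 167 and 168 RPKM in dKO against 148, 170, 144 and 149 in WT at 1 h. The 193 is replicate 2, which this fit left out, and the remaining dKO libraries overlapped the WT libraries in RPKM as deposited. Apart from Psma8, the largest of these increases was 0.34 on the log2 scale (Psmd9).

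LPS changed most of these genes in WT cells, and which way many of them were called depended on the scaling. As deposited, 1 of 38 was higher and 30 lower at 1 h (6.84% and 45.5% of all genes tested), 1 and 25 at 2 h (11.2% and 68.5%) and 8 and 21 at 6 h (14.9% and 60.9%). With the typical gene set to no change, 2 were higher and 2 lower at 1 h (15.1% and 13.2% of all genes), 22 and 4 at 2 h (30.7% and 31.1%) and 22 and 4 at 6 h (32.6% and 33.8%). The median of all genes tested fell by 0.42, 0.73 and 0.65 on the log2 scale as deposited and was 0.03, -0.02 and -0.03 after scaling. The median of the 38 genes was -0.38, -0.49 and -0.38 as deposited and 0.09, 0.30 and 0.30 after scaling. Relative to the typical gene, the proteasome genes were thus less reduced at 2 and 6 h. The 0 h libraries did not overlap with those of 1, 2 and 6 h in 34, 27 and 32 of the 38 genes (75.3%, 85.5% and 84.6% of all genes). The share of the 38 genes in all RPKM went from 0.511% at 0 h to 0.413%, 0.416% and 0.499%. The 3 LPS comparisons share the 0 h libraries.

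**Figure D4:**
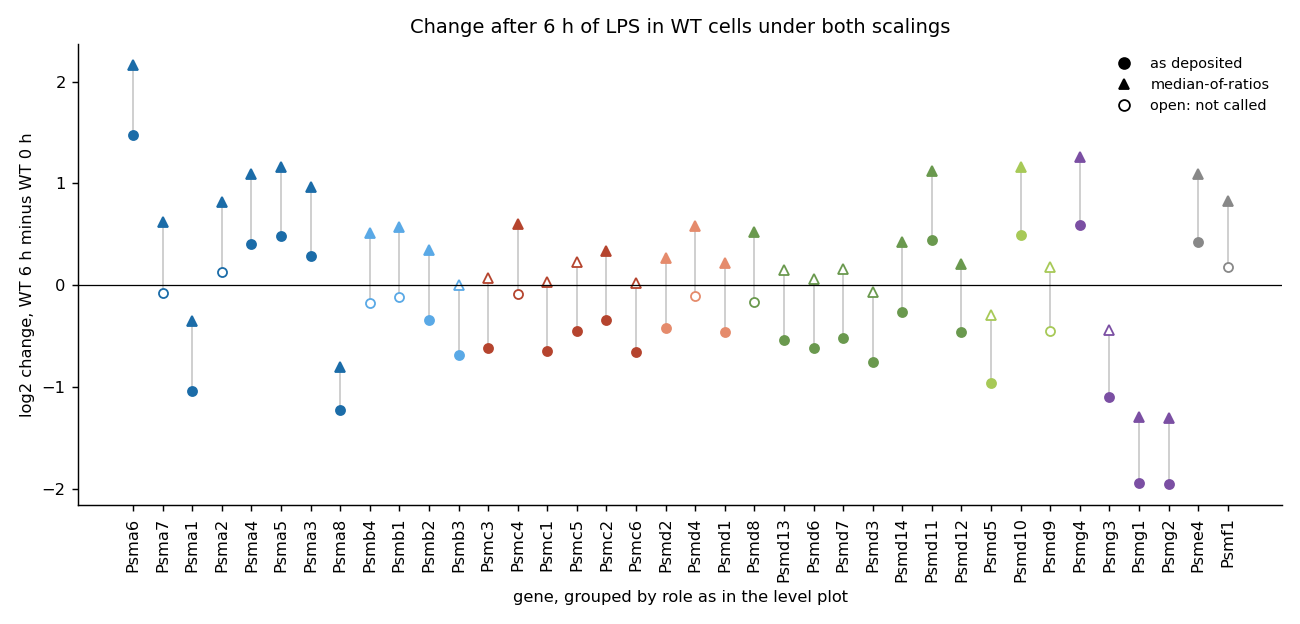
Log2 change of each gene from 0 to 6 h of LPS in WT, as deposited (circles) and after median-of-ratios scaling (triangles); open symbols were not called. Scaling shifts every gene upward, Psma6 is highest and Psmg1 and Psmg2 are lowest under both.

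At 6 h, 8 genes rose under both scalings, and 4 of them were alpha ring genes. Psma6 rose from 146, 146, 141 and 154 RPKM at 0 h to 180, 176, 176 and 190 at 1 h, 240, 233, 240 and 262 at 2 h and 408, 412, 395 and 421 at 6 h, with no overlap between any 2 of these times. Its log2 changes were 0.30, 0.73 and 1.47 (SE 0.124; limma adjusted p = 0.0468, 1.6e-05 and 1.21e-09), and 0.77, 1.52 and 2.16 after scaling. The call at 1 h was lost whenever any 1 of the 8 libraries was left out. The other 3 alpha ring genes that rose had smaller changes: Psma5 went from 32.1, 31.1, 29.6 and 31.5 to 43.7, 43.0, 43.8 and 44.7 at 6 h (0.49), Psma4 from 78.2, 77.1, 72.5 and 86.4 to 106, 101, 103 and 106 (0.40) and Psma3 from 19.4, 16.6, 18.7 and 16.9 to 23.3, 21.9, 20.8 and 22.0 (0.29). Psma1, in contrast, fell at 6 h under both scalings, from 98.6, 90.4, 89.2 and 94.9 to 45.9, 45.4, 42.6 and 47.6 (-1.03 ± 0.153, limma adjusted p = 1.91e-06; -0.35 after scaling, limma adjusted p = 0.0148). Genes whose products sit in 1 ring thus moved in both directions.

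The other genes that rose at 6 h under both scalings were spread over the roles. Psmg4, the chaperone, went from 18.7, 19.6, 21.4 and 16.3 to 28.8, 27.0, 27.0 and 32.7 RPKM (0.59 ± 0.138, limma adjusted p = 0.000413; 1.26 after scaling). Psmd11, a lid gene, went from 29.7, 29.4, 27.8 and 28.3 to 41.0, 40.1, 35.5 and 41.1 (0.44 ± 0.125, limma adjusted p = 0.00248; 1.12 after scaling). Psmd10, the chaperone gankyrin, went from 16.5, 16.5, 15.5 and 17.3 to 22.5, 25.3, 23.0 and 22.9 (0.50 ± 0.169, limma adjusted p = 0.00982; 1.17 after scaling). Psme4 rose by 0.43, to 22.4, 25.6, 22.8 and 22.7 (limma adjusted p = 0.0177; 1.10 after scaling). In each of these genes the 6 h libraries lay above all 0 h libraries.

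Of the 4 assembly chaperones of the core, 3 fell and Psmg4 rose at 6 h as deposited; after scaling 2 fell and Psmg4 rose. Psmg1 and Psmg2 encode a pair that starts the alpha ring. Psmg1 (chromosome 16, 96201542 to 96212510, mm9) went from 13.8, 12.6, 12.02 and 11.2 RPKM to 4.14, 2.58, 2.74 and 2.27 at 6 h (-1.93 ± 0.266, limma adjusted p = 7.24e-07; -1.29 after scaling, limma adjusted p = 8.57e-06). Psmg2 went from 12.6, 10.9, 11.0 and 10.1 to 3.11, 2.43, 2.96 and 1.75 (-1.95 ± 0.294, limma adjusted p = 2.29e-06; -1.30 after scaling). Both were already lower at 1 h, when Psmg1 had 6.44, 8.05, 6.70 and 8.31 RPKM and Psmg2 6.65, 6.16, 5.27 and 5.50 (-0.72 and -0.87, limma adjusted p = 0.0278 and 0.0174). After scaling these changes at 1 h were -0.26 and -0.41 and neither was called. Psmg3 (chromosome 5, 140299548 to 140302797, mm9) fell from 13.4, 12.8, 12.2 and 13.3 to 5.50, 4.63, 4.22 and 5.91 at 1 h (-1.28 ± 0.288, limma adjusted p = 0.00135; -0.82 after scaling, limma adjusted p = 0.00397) and 3.07, 3.59, 4.37 and 3.78 at 2 h (-1.68), and was at 4.35, 5.71, 6.72 and 6.66 at 6 h (-1.09; -0.44 after scaling, limma adjusted p = 0.058). Psmg4 at 1 h had 18.1, 17.8, 17.8 and 23.0 RPKM, within the range of 0 h but for 1 library. Cell cycle genes, which fell over the same times in WT, were given above, and their part in the fall of Psmg1 and Psmg2 was not tested.

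The 250 bases before the start are shown for Psma6 and Psmg4, the 2 genes lower in dKO at 6 h under both scalings, and for the chaperone genes Psmg1 and Psmg3, which fell after LPS where Psmg4 rose. They are RefSeq sequences of the GRCm38.p6 build, a later build than the mm9 of the tables, written 5′ to 3′ on the gene's strand up to the base before the start; capitals mark matches to the motifs named after them.
Psma6 (chr12:55398575-55398824, plus strand): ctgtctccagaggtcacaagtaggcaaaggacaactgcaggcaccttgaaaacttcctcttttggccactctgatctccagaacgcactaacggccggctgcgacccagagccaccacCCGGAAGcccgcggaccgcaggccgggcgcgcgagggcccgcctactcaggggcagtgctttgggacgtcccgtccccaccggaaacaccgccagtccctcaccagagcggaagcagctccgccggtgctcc
Psmg4 (chr13:34162714-34162963, plus strand): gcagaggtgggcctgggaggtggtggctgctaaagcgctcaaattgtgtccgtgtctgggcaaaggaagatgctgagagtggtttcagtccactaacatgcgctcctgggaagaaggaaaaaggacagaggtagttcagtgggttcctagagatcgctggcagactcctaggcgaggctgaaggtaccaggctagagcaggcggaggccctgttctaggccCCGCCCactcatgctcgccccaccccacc
Psmg1 (chr16:95990961-95991210, minus strand): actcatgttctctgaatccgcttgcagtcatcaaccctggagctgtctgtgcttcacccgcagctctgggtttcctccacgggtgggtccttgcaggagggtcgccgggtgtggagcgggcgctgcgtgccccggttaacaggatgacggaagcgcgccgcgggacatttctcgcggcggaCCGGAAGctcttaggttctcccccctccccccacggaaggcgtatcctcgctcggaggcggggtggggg
Psmg3 (chr5:139826895-139827144, minus strand): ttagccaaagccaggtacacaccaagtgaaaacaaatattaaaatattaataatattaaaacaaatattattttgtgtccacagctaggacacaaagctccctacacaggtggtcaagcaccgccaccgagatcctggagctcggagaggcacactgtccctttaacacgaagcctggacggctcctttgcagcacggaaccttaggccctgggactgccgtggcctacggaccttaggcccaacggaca
Psma6, which rose, and Psmg1, which fell, each held 1 ETS match (CCGGAAG), 132 and 69 bases before the start. Psmg4 held 1 Sp1 match on the minus strand (GGGCGG, read here as CCGCCC) 29 bases before the start, and Psmg3 held none of the motifs searched. Psma6 has a second start in the table, with no ETS match. RefSeq entries were matched for 31 of the 38 genes, with 33 promoters. Of these 33, 12 held the ETS motif (36.4%, against 6.91% of 32851 promoters of the same length), 18 the Sp1 motif (54.5% against 32.7%), 11 the NF-Y motif CCAAT (33.3% against 33.8%), 3 the core of the antioxidant response element, TGACNNNGC (9.09% against 10.2%), and 0 the NF-kB motif (0.356% of all promoters). Both strands were searched. Matches of different motifs overlap in Psme4 (Sp1 and ETS, by 1 base) and in Psmd9. In Psmd9 they are the antioxidant response element core and Sp1, which start 31 and 26 bases before the gene's start. Sp1 matches overlap each other in Psma4 and Psma7. The members' promoters had a median GC content of 57.6% against 52.4%. These matches describe letters in this window and no binding.

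The other genes that fell under both scalings did so at single times. Psmd7, a lid gene, had 20.8, 22.0, 22.9 and 26.7 RPKM at 1 h against 40.8, 41.7, 37.7 and 46.5 at 0 h (-0.84 ± 0.137, limma adjusted p = 0.000106; -0.37 after scaling, limma adjusted p = 0.0451), and 29.4, 28.9, 26.3 and 30.9 at 6 h. Psmd5, a chaperone of the base, fell from 16.2, 19.1, 16.0 and 18.3 to 6.87, 5.54, 5.62 and 6.73 at 2 h (-1.42 ± 0.279, limma adjusted p = 6.68e-05; -0.66 after scaling, limma adjusted p = 0.00344). Psma8, already near 1 RPKM, was at 0.0611, 0.120, 0.380 and 0.535 at 6 h. The 3 chaperones of the regulatory particle thus parted, since Psmd10 was higher at 6 h and Psmd5 lower at 2 h under both scalings, while Psmd9 was lower at 2 h as deposited only (-0.98, limma adjusted p = 0.000335).

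Most genes of the base and lid fell as deposited by less than the typical gene. At 6 h, 5 of 6 ATPases, 2 of 3 other base genes and 6 of 8 lid genes were called lower, with role medians of -0.53, -0.41 and -0.49 against -0.65 for all genes; after scaling 2, 3 and 4 of them were called higher and none lower. Psmc6 had 24.0, 23.2, 25.6 and 23.2 RPKM at 6 h against 40.2, 36.7, 35.6 and 39.6 (-0.65 ± 0.103, limma adjusted p = 4.28e-06; 0.03 after scaling). Psmd13 had 33.1, 34.2, 33.6 and 35.2 at 2 h against 49.6, 54.3, 48.9 and 54.3 (-0.60 ± 0.102; 0.19 after scaling), and Psmc2 25.3, 21.4, 21.4 and 25.4 against 38.6, 38.2, 36.5 and 42.2 (-0.73 ± 0.131; 0.06 after scaling). At 1 h Psmd2 had 50.5, 53.1, 47.4 and 55.9 against 72.9, 73.2, 71.3 and 76.9 (-0.51 ± 0.0948; -0.03 after scaling). In these 4 genes the groups did not overlap in RPKM as deposited, and none of the 4 changes was called after scaling. Other genes were called in opposite directions: 10 genes at 2 h and 6 genes at 6 h were called lower as deposited and higher after scaling.

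Ratios within a library do not depend on the scaling. The log2 ratio of Psma6 to the geometric mean of Psma1 to Psma5 and Psma7 was 1.20, 1.27, 1.26 and 1.29 in WT at 0 h and 2.67, 2.74, 2.70 and 2.67 at 6 h. In dKO it was 1.20, 1.70, 1.23 and 1.20 at 0 h and 2.05, 1.98, 2.20 and 1.85 at 6 h, so that the genotypes overlapped at 0 h and were apart at 6 h, also without replicate 4 (1.85). Psmg4 against Psmg1 to Psmg3 went from between 0.50 and 0.87 in WT at 0 h to between 2.83 and 3.46 at 6 h, and from 0.57 to 1.64 in dKO to 2.01 to 2.78. Psmg1 to Psmg3 against the core genes went from -2.60 ± 0.0761 to -4.30 ± 0.202 (SD, n = 4) in WT and from -2.76 ± 0.311 to -4.31 ± 0.159 in dKO. The base and lid against the core went from -0.65 ± 0.0252 to -0.93 ± 0.0211 in WT and from -0.65 ± 0.0339 to -0.93 ± 0.117 in dKO. The last 2 ratios overlapped between the genotypes at 0 and 6 h; without dKO replicate 4 the ratio of base and lid to core at 6 h did not overlap, at -1.01 to -0.97 in dKO against -0.96 to -0.91 in WT. The ratios were chosen after values of these genes were known and are given as descriptions.

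**Figure D5:**
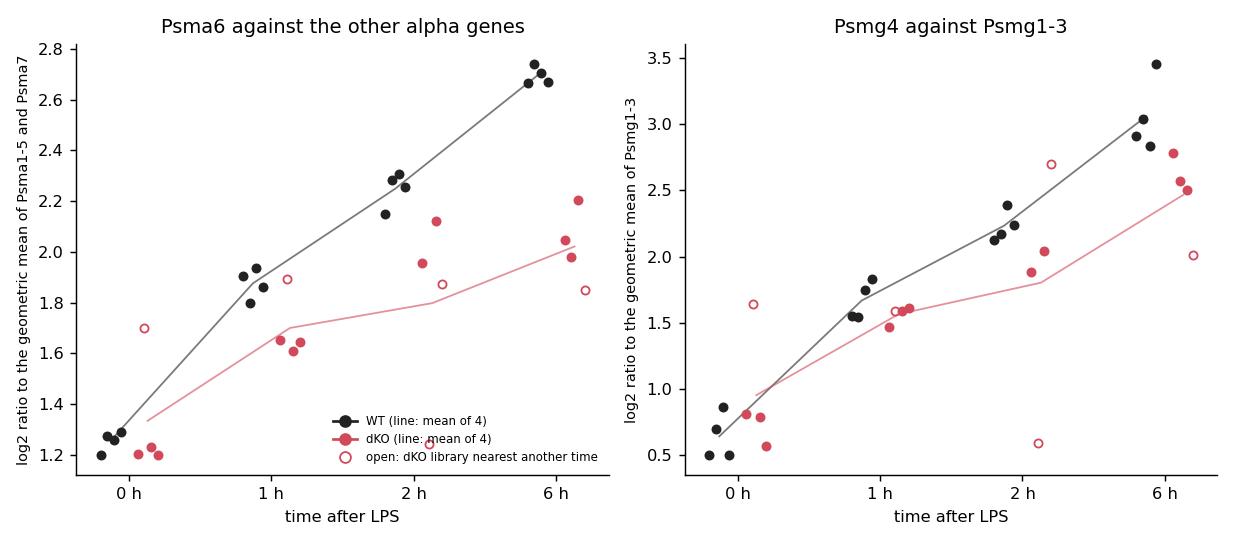
Log2 ratio within each library of Psma6 to the geometric mean of Psma1 to Psma5 and Psma7 (left) and of Psmg4 to that of Psmg1 to Psmg3 (right), by time after LPS; open points are the 5 dKO libraries nearest to another time. At 6 h the WT libraries lie between 2.67 and 2.74 for Psma6 and the dKO libraries between 1.85 and 2.20.

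In dKO cells LPS called 0 genes higher and 19 lower at 1 h (5.82% and 44.1% of all genes), 1 and 16 at 2 h (9.17% and 53.8%) and 7 and 21 at 6 h (14.7% and 60.2%). The counts as deposited moved with single libraries. Without dKO replicate 2 of 0 h they were 28 at 1 h and 26 at 2 h in all. Without dKO replicate 1, 3 or 4 of 0 h, or replicate 2 of 1 h, the count at 1 h was between 7 and 9. Without dKO replicate 1 or 4 of 0 h, or replicate 3 or 4 of 2 h, the count at 2 h was between 9 and 11. After scaling the counts were 3 and 1, 20 and 2, and 26 and 5 (12.8% and 11.2%, 22.1% and 18.5%, and 31.7% and 33.8% of all genes). At 6 h Psma6 rose by 0.81 (limma adjusted p = 7.28e-06), and Psma2, Psma3, Psma4, Psmd11, Psmd10 and Psme4 rose under both scalings. Psmg4, which rose in WT, had a log2 change of -0.07 in dKO (limma adjusted p = 0.63; 0.55 after scaling, limma adjusted p = 0.00246). Psmg1 (-1.77), Psmg2 (-1.48) and Psmg3 (-1.07) fell under both scalings.

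The difference between the genotypes' LPS responses was tested directly and called for none of the 38 genes at 1, 2 or 6 h, where 0.0359%, 0.305% and 0.923% of all genes were called. At limma's unadjusted p below 0.05 there were 0, 4 and 3 genes. The 4 at 2 h (Psma2, Psmc6, Psmd6 and Psmd7) all had a higher response in dKO, with a smallest limma adjusted p of 0.243 (Psmd7). At 6 h 1 was higher (Psmd6) and 2 were lower. Psma6 and Psmg4 came nearest at 6 h, with differences of -0.67 ± 0.175 (SE; 95% interval -1.03 to -0.31; limma adjusted p = 0.062) and -0.67 ± 0.195 (-1.07 to -0.27; limma adjusted p = 0.12). Without dKO replicate 3 of 6 h alone 1 gene was called at 6 h. Without the 5 libraries 0, 1 and 5 genes were called (1.81%, 5.64% and 20.3% of all genes): Psmd5 was lower in its response at 2 h (-0.51), and at 6 h Psma6 (-0.52), Psmg4 (-0.55), Psmd4 (-0.21) and Psmd9 (-0.54) were lower and Psme4 (0.31) higher. With scaling as well, Psma6, Psmg4, Psmd9 and Psme4 were called at 6 h, 4 of 38 where 20.4% of all genes were called. The smaller LPS response of Psma6 and Psmg4 in dKO at 6 h thus passed the test without those 5 libraries and not with all 32.

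Other genes of the pathway, from a list of 25 assembly, regulatory and ubiquitin system genes, are given as examples. How many of the 25 were called is not reported here, so the examples do not describe the list as a whole. Of all genes tested, 5.91%, 9.02%, 7.24% and 10.2% were called lower in dKO at 0, 1, 2 and 6 h as deposited. At 0 h Pomp, which encodes the maturation factor of the core, was lower (-0.55, limma adjusted p = 0.0405), as was Vcp (-0.35), the segregase that extracts ubiquitinated proteins. Pomp and Vcp were lower again at 1 h, and Vcp and the ubiquitin-activating gene Uba6 (-1.26) at 2 h. At 6 h Vcp (37.6 against 62.7 RPKM; -0.74 ± 0.106, limma adjusted p = 1.23e-05), Pomp (-0.52) and Zfand2a (-0.55) were lower. After scaling, Vcp was called lower at 2 and 6 h, Uba6 at 2 h and Zfand2a at 6 h, and AI314180 and Ubqln4 (2 h) and Ubqln2 (6 h) were called higher. As deposited, AI314180 at 2 h ran from 12.4 to 26.4 RPKM in dKO against 10.8 to 13.1 in WT. Ubqln4 ran from 6.06 to 12.6 against 5.32 to 5.92. In WT at 0 h their means were 25.6 and 13.2. The dKO groups at 2 and 6 h include libraries nearest to another time, and calls of these pathway genes without the 5 libraries are not reported here. Nfe2l1, the gene of Nrf1, was not called between the genotypes and rose in WT at 6 h, from 68.8 to 134 RPKM (0.96 ± 0.149, limma adjusted p = 3.12e-06), as it did in dKO (0.77); Ddi2, the protease that activates Nrf1, fell from 19.3 to 4.03 in WT (-2.15, limma adjusted p = 4.47e-05).

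Of the catalytic genes outside the set other than the deleted Psmb8 and Psmb10, Psmb5, the constitutive counterpart of Psmb8, was lower in dKO at all 4 times (-1.17, -1.05, -0.96 and -1.07), also after scaling (-0.95, -0.85, -1.04 and -0.91), and Psmb7 at 0 and 6 h as deposited (-0.35 and -0.32). In WT the inducible Psmb8 (0.66), Psmb9 (1.503) and Psmb10 (0.93) and the PA28 genes Psme1 (1.26) and Psme2 (1.68) rose at 6 h, against 1.47 for Psma6.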

How the data were processed

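Gene expression was measured by RNA-seq in 32 libraries (TruSeq v2, which does not mark strand, 4 µg total RNA). The authors deposited 1 table per library with the RPKM of each gene, made with CASAVA 1.8.2 on mm9 per the submitters' processing notes, and with the coverage of each gene in aligned bases, used here for depth only (1.27 to 1.87 Gb). How reads shared by overlapping genes were counted is not given in the sources used here. Read counts were not analysed here, so values were tested as log2(RPKM + 0.5) with limma 3.58.1 in R 4.3.3, with 8 group means, a mean-variance trend and 24 residual degrees of freedom (19 without the 5 libraries), on the 11154 of 22216 genes with at least 1 RPKM in at least 4 libraries, leaving out 92 spike-ins, over 13 comparisons. Psmb8 and Psmb10 checked the genotype. The fit was tested on simulated data. Median-of-ratios factors used 11300 genes above 0 in every library.

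Members and lists were chosen with earlier results of these data known, and the alternative that combines median-of-ratios scaling with leaving out the 5 libraries was chosen after seeing the data. Values in every library are given for the 4 members with the smallest adjusted p in each genotype comparison and in each direction of each WT LPS comparison, for the 3 smallest in each difference of responses, and for the highest and lowest of each role; others were added where a statement needed them. Other alternatives were pseudocounts of 0.1 and 1, median-of-ratios scaling, no filter or one at 5 RPKM, leaving out the 5 libraries, the replicate number as a block, and each library left out in turn. Gene positions are as deposited (mm9), and promoters are from RefSeq (GRCm38.p6); 7 members without an entry there are named only. Some genes of the wider pathway list are not reported here.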

Additional observations from a re-analysis of the deposited data

Results flagged for a closer look

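Of 144 groups of 4 libraries checked among the genes given in full, 6 held a library far from the other 3, and chance alone marks about 1 group in 20. Psmc4, an ATPase of the base, was at 49 RPKM in WT replicate 4 at 2 h, where the next library had 43.0. Psmg4 was at 23 RPKM in WT replicate 4 at 1 h, where the next had 18.1. Psmb4 was at 106 RPKM in dKO replicate 1 at 1 h, where the next had 95.1. The other 3 were in libraries nearest to another time than their label: Psmg3 was at 4.25 RPKM in dKO replicate 2 at 0 h against 12.3 or more in the other libraries, Psmc6 at 24.5 in dKO replicate 2 at 1 h against 27.5 or more, and Psmd10 at 28.9 in dKO replicate 4 at 2 h against 16.2 or less.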

How the results depend on the processing

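Counts are of the 38 genes called by limma. With median-of-ratios scaling the genotype counts were 0, 0, 1 and 2 at 0, 1, 2 and 6 h, and without the 5 libraries 13, 17, 11 and 25; with both changes they were 6, 5, 4 and 12. A pseudocount of 1 gave 1 at 1 h, where the count was 0. For LPS in WT, scaling gave 4, 26 and 26 calls at 1, 2 and 6 h (2, 22 and 22 higher), and with both changes 21, 33 and 30 (16, 28 and 24 higher; of all genes 31.3%, 38.1% and 39.3% were then higher and 27.6%, 39.1% and 40.9% lower), so that at 2 and 6 h more genes were called higher than lower, the reverse of the counts as deposited. For LPS in dKO, scaling gave 4, 22 and 31 (3, 20 and 26 higher), leaving out the 5 gave 31 and 28 at 1 and 2 h (0 and 1 higher; of all genes 9.48% and 13.9% higher and 67.9% and 72.4% lower), and both changes gave 23, 33 and 32 (18, 28 and 24 higher; of all genes 30.1%, 35.9% and 38.6% higher and 25.7%, 35.2% and 41% lower). The difference of responses had 1 call at 2 h and 5 at 6 h without the 5 libraries, and 2 and 4 with both changes (6.47% and 20.4% of all genes). The fall of Psmd13 and Psmc6 at 2 h in WT became changes of 0.19 and 0.19 with scaling (0.18 and 0.18 with both changes), that of Psmc2 at 2 h became 0.056 (0.052), and that of Psmc6 at 6 h 0.027 (0.028). By construction the scaling moves the typical gene to no change. With each library left out in turn the genotype counts ranged from 0 (without dKO replicate 2) to 8 at 0 h, 0 to 1 at 1 h, 1 to 2 at 2 h and 3 to 6 at 6 h; the WT LPS counts from 21 to 28, 25 to 28 and 25 to 28; the dKO LPS counts from 7 to 28, 9 to 26 and 23 to 31; and the difference of responses from 0 to 1 at 6 h and 0 to 0 at 1 and 2 h. The rise of Psma6 at 1 h in WT missed the threshold without the filter (limma adjusted p = 0.0606), with the replicate block (0.0785) and in all 8 fits that left out 1 library. Same-numbered WT and dKO libraries of a time deviated together in 1 of 16 pairs (correlation above 0.1). Same-numbered WT libraries of different times did so in 16 of 24 and dKO libraries in 5 of 24. The 24 WT correlations were all above 0 (0.0207 to 0.241, median 0.14), and those of dKO ran from -0.771 to 0.293. Whether same-numbered WT libraries share a source is not known. The labels do not say what the numbers stand for, so they were not taken as pairs in the main fit. The replicate block gave 12 calls for LPS at 1 h in dKO in place of 19, and changed no other count by over 1.5 times. Other pseudocounts and filters changed no other call among the 27 results on single genes. Without the 5 libraries, 2 dKO libraries are left at 2 h.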

Other observations

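The genes beside Psma6 and Psmg4 were looked at after the values of both were known. Nfkbia, which encodes the NF-kB inhibitor IkB-alpha, lies 70950 bases from Psma6 on chromosome 12 (mm9). It rose in WT by 2.52, 2.34 and 2.07 on the log2 scale at 1, 2 and 6 h of LPS, to 1246 RPKM at 1 h from 218 at 0 h, and so was highest at the first time, where Psma6 was highest at the last. The nearest entry to Psma6, 1110008L16Rik at 16334 bases, was at 0.877 RPKM in dKO and 1.52 in WT at 6 h, and Ppp2r3c at 7.44 and 9.53; neither overlapped between the genotypes or passed the test (-0.55 and -0.34, limma adjusted p = 0.209 and 0.120), and both were called lower without the 5 libraries (-0.51 and -0.26). In WT, 1110008L16Rik fell at 6 h of LPS (-1.06, limma adjusted p = 0.00149), where Psma6 rose. The dKO minus WT change of Nfkbia at 6 h was -0.12 (limma adjusted p = 0.887), where Psma6 was lower by test. Slc22a23, a solute carrier gene 986 bases from Psmg4, was lower in dKO at all 4 times as deposited (-0.74, -0.74, -0.81 and -0.66; limma adjusted p = 0.0228, 0.0152, 0.00715 and 0.0261) and only at 2 h after median-of-ratios scaling. It rose at 6 h of LPS in WT (0.70) and in dKO (0.77), whereas Psmg4 rose as deposited in WT and had a change of -0.07 in dKO. The difference between the genotypes' responses was 0.08 for Slc22a23 at 6 h (limma adjusted p = 0.999) and -0.67 for Psmg4 (limma adjusted p = 0.12).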
